A study of Mus musculus with 4 samples.

Results

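The MHC class I and peptide loading genes are the 6 genes H2-K1, H2-D1, B2m, Tap1, Tap2 and Tapbp. They were taken by symbol from 13085 genes measured by RNA-seq, and the set was chosen with earlier results of these data known. Each of the 6 had at least 1 row in the files, and rows of the same symbol were summed. Expression was measured in 3T3-L1 cells, a murine preadipocyte line, on day 8 of adipogenic differentiation. There were 4 stable lines with 1 sample each. FLAG carried the empty FLAG vector and FLAG-CACUL1 carried the same vector expressing CACUL1, a cullin-domain protein known to associate with CDK2, and both were selected with G418. sh-Luc carried a hairpin against luciferase and sh-CACUL1 a hairpin against CACUL1, and both were selected with Hygromycin B. The 4 lines shared the differentiation treatment of rosiglitazone (5 μM), a PPARγ agonist, with IBMX (0.5 mM), dexamethasone (1 μg/ml) and insulin (5 μg/ml). Resistant colonies were selected, and the sources used here do not state whether each line was 1 clone or a pool. With 1 sample per line there was no replicate spread, so no difference below was tested and no p-value or error is given.

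MHC class I molecules display peptides from inside the cell on its surface, where CD8+ T cells and NK cells read them. The molecule is a heavy chain, encoded here by H2-K1 and H2-D1, bound to the light chain β2-microglobulin (B2m). Peptides cut by the proteasome are carried into the endoplasmic reticulum by the TAP1-TAP2 transporter, and tapasin (Tapbp) holds empty heavy chains next to that transporter until they load. Interferons are known to raise most of these genes in many cell types, through transcription factors such as IRF1 and the coactivator NLRC5.

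Values are FPKM, fragment counts scaled to transcript length and library size as the authors deposited them, and levels of different genes are compared only on that length-adjusted scale. Differences are log2 ratios of FPKM + 1, and a gene is called higher or lower where this ratio reaches 2-fold. The depth estimated from the smallest steps between values was about 14400000 fragments for FLAG, 14300000 for FLAG-CACUL1, 24000000 for sh-Luc and 14900000 for sh-CACUL1, and 1 fragment on a 2 kb transcript was worth 0.0208 to 0.0350 FPKM. Cacul1 itself was at 9.61 FPKM in FLAG and 11.8 in FLAG-CACUL1, against 10.2 for sh-Luc and 5.39 for sh-CACUL1. Its log2 ratio was 0.27 for FLAG-CACUL1 against FLAG and -0.82 for sh-CACUL1 against sh-Luc, so that neither reached 2-fold and the overexpression was small in the Cacul1 row. The study checked the FLAG-CACUL1 and sh-CACUL1 lines by western blot, that is at the protein level, which these mRNA values do not measure. The summed level of 6 adipocyte markers was 7249 FPKM in FLAG and 369 in FLAG-CACUL1, against 1330 for sh-Luc and 16453 for sh-CACUL1, so the adipocyte label held least in FLAG-CACUL1. In such bulk samples, fewer cells of a type and less RNA per cell cannot be told apart.

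All but B2m of the 6 genes are in the MHC on chromosome 17, and B2m is on chromosome 2 (GRCm38, GENCODE M21). Tapbp (chr17:33915899-33929292), H2-K1 (chr17:33996017-34000347), Tap1 (chr17:34187553-34197225), Tap2 (chr17:34203527-34216321) and H2-D1 (chr17:35262730-35267499) span 1.35 Mb in that order, with H2-K1 alone on the minus strand. B2m is at chr2:122147686-122153083. Tap1 and Psmb9, which encodes an immunoproteasome subunit, are transcribed away from each other from RefSeq starts 226 bases apart, and Psmb9, Tap1, Psmb8 and Tap2 all lie within 34.3 kb.

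The bases directly upstream of the RefSeq starts (GRCm38.p6) are shown for the 4 members that stood farthest apart between the lines. They are the 200 bases before the start of H2-K1 (chr17:34000348-34000547, minus strand), H2-D1 (chr17:35262894-35263093, plus strand) and B2m (chr2:122147487-122147686, plus strand), and the 225 bases between the starts of Psmb9 and Tap1 (chr17:34187331-34187555, plus strand, read towards Tap1). The GENCODE model of H2-D1 begins upstream of its printed bases. Capitals mark matches on either strand to the core of the interferon-stimulated response element (GAAA, any 2 bases, GAAA) or to a loose core of the κB site (GGG, any 5 bases, CC), with overlapping matches run together.
H2-K1: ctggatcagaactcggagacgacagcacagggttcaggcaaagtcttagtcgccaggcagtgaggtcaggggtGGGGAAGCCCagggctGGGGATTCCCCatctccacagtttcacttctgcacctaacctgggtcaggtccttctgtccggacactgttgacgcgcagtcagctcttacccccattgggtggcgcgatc
H2-D1: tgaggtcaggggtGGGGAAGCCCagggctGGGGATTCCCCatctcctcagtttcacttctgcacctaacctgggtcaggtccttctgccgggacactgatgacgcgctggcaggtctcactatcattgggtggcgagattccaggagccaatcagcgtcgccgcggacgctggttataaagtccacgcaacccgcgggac
B2m: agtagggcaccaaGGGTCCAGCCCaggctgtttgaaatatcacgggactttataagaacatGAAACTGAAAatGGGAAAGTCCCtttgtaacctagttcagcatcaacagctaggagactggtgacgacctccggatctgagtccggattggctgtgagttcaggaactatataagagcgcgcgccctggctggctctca
Tap1 and Psmb9: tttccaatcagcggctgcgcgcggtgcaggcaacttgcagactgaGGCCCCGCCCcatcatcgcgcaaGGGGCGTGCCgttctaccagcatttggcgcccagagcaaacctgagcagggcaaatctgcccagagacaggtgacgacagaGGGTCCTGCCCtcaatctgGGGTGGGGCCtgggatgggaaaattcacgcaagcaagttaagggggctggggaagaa

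The promoters of H2-K1 and H2-D1 were alike, with 176 of 240 aligned bases identical (73.3%, without gaps), and the κB-type matches GGGGAAGCCC and GGGGATTCCCC stood in both. The interferon-stimulated core was matched in the B2m window alone among the 5 members with a promoter window, as GAAACTGAAA 139 bases before the start, next to the κB-type match GGGAAAGTCCC. Over windows of 250 bases before to 50 after all 32851 starts, 3.44% held the interferon-stimulated core and 50.8% held the κB core, so the latter match is common. Tapbp had no match to either, to TTCNNNGAA (gamma-activated site core, in 8.30% of windows) or to TGACGT (cAMP response element core, in 7.51%). The absence of a match says only that those letters are not in the window searched.

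Among the 6 genes, 5 were higher in both FLAG-vector lines than in both hairpin lines, whatever their CACUL1 construct. H2-K1, H2-D1, B2m and Tap1 were at least 2-fold higher, Tap2 was higher by less than that, and Tapbp overlapped. Over all genes, both FLAG-vector lines were above both hairpin lines in 17.3%, and at least 2-fold above in 1.85%. The median log2 gap between the lowest FLAG-vector line and the highest hairpin line was 1.34 over the 6 genes and -0.47 over all genes. The count of 4 became 3 after quantile normalization, after scaling to TPM and at a 3-fold cut-off. The count of 5 genes above stayed at 5 after quantile normalization, median-of-ratios scaling and scaling to TPM. The other settings could not change which line of a gene was higher, so they add nothing to this count. The vector and the selection drug differed together between these pairs of lines, so they cannot be told apart. Together the 6 genes took 1.11% of all FPKM in FLAG and 1.66% in FLAG-CACUL1, against 0.491% for sh-Luc and 0.211% for sh-CACUL1.

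**Figure D1:**
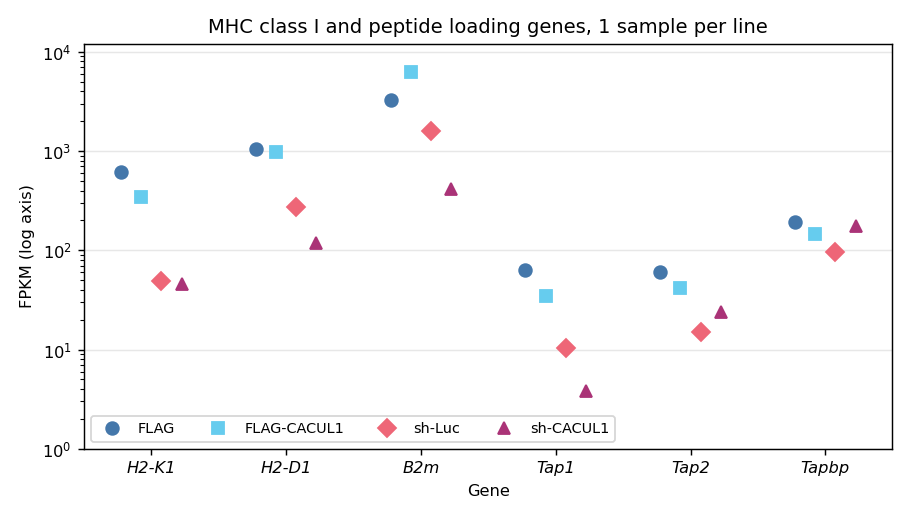
Expression of the 6 MHC class I and peptide loading genes (x axis) in FPKM on a log axis, with 1 point per line and 1 sample per line. For H2-K1, H2-D1, B2m, Tap1 and Tap2 both FLAG-vector lines lie above both hairpin lines, while the Tapbp points run from 95.6 to 192 FPKM and overlap.

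H2-K1, a classical heavy chain, was at 611 FPKM in FLAG and 344 in FLAG-CACUL1, against 48.9 for sh-Luc and 45.6 for sh-CACUL1. Both FLAG-vector lines were high and both hairpin lines low, the lower of the first being 6.91-fold above the higher of the second. H2-K1 stood 136th in expression among all genes in FLAG and 1480th in sh-Luc. The log2 ratio was -0.83 for FLAG-CACUL1 against FLAG and 3.62 for FLAG against sh-Luc, the largest of the 6 genes in the latter. Against sh-Luc, sh-CACUL1 gave -0.10, a value that turned to 0.22 after quantile normalization, to 0.34 after median-of-ratios scaling and to 0.06 in TPM.

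H2-D1, the other classical heavy chain, was at 1051 FPKM in FLAG and 990.1 in FLAG-CACUL1, against 274 for sh-Luc and 120 for sh-CACUL1. The FLAG-vector lines nearly met and the hairpin lines lay below them by 3.61-fold or more. The log2 ratio was -0.09 for FLAG-CACUL1 against FLAG, -1.19 for sh-CACUL1 against sh-Luc and 1.94 for FLAG against sh-Luc. With median-of-ratios scaling the second of these was -0.74 and no longer reached 2-fold. The heavy chains thus differed in the knockdown, where H2-K1 was nearly level with its control and H2-D1 was not. The ratio of H2-K1 to H2-D1 within a sample was 0.581 in FLAG and 0.348 in FLAG-CACUL1, against 0.179 for sh-Luc and 0.381 for sh-CACUL1, so H2-D1 was the more abundant in each.

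The division of fragments between these heavy chain genes is uncertain, because they share sequence. Of all 31-base stretches of its transcripts, H2-K1 shared 23.3% with some other gene, including 16.9% with H2-D1 and 10.1% with H2-Q4, and H2-D1 shared 27.5%, including 12.9% with H2-K1 and 10.1% with H2-Q1. The share was 0% for B2m, 1.49% for Tap1, 1.49% for Tap2 and 2.83% for Tapbp. Class I genes also vary between mouse strains, and 3T3-L1 cells come from Swiss mice whereas the reference is C57BL/6J, the effect of which was not tested. The sum of H2-K1 and H2-D1 was 1663 FPKM in FLAG and 1334 in FLAG-CACUL1, against 323 for sh-Luc and 165 for sh-CACUL1. This sum depends less on the division between the pair than either value does. It is not free of it, because the transcripts are 1619 and 2102 bases long, and fragments shared with other genes also enter it.

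B2m, the light chain shared by all class I molecules, was the most abundant member in every line. It was at 3255 FPKM in FLAG and 6284 in FLAG-CACUL1, against 1601 for sh-Luc and 418 for sh-CACUL1, a range of 15.0-fold. It was highest in FLAG-CACUL1, where it was the 4th most abundant of all genes, and lowest in sh-CACUL1, where it was 145th. Among the 6 genes it alone was higher in FLAG-CACUL1 than in FLAG, by 0.95 on the log2 scale, just under 2-fold. In sh-CACUL1 it was lower than in sh-Luc, with a log2 ratio of -1.93, which stayed between -1.94 and -1.49 under the other settings that kept this control. FLAG against sh-Luc gave 1.02, a value of 0.51 after quantile normalization and of 0.84 in TPM.

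The light chain and the heavy chains did not keep 1 ratio. B2m over the sum of H2-K1 and H2-D1 was 1.96 in FLAG and 4.71 in FLAG-CACUL1, against 4.96 for sh-Luc and 2.53 for sh-CACUL1. B2m was in excess in each line, and the ratio was lowest in FLAG, where the heavy chain sum was highest.

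Tap1, the first chain of the peptide transporter, was at 63.9 FPKM in FLAG and 34.6 in FLAG-CACUL1, against 10.3 for sh-Luc and 3.85 for sh-CACUL1. Each line was at a lower level than the one before it in that order, and the range of 16.6-fold was the widest of the 6 genes. The log2 ratio was -0.87 for FLAG-CACUL1 against FLAG, -1.21 for sh-CACUL1 against sh-Luc and 2.53 for FLAG against sh-Luc. The first reached -1.02 with median-of-ratios scaling. The second was -0.74 after quantile normalization and -0.83 with median-of-ratios scaling, and so under 2-fold in both.

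Tap2, the partner chain, was at 60.4 FPKM in FLAG and 41.6 in FLAG-CACUL1, against 15.1 for sh-Luc and 23.99 for sh-CACUL1. The FLAG-vector lines were again higher, here by 1.71-fold or more, but of the hairpin lines sh-CACUL1 was the higher. The log2 ratio was -0.53 for FLAG-CACUL1 against FLAG, 0.64 for sh-CACUL1 against sh-Luc and 1.93 for FLAG against sh-Luc. The second reached 1.08 after quantile normalization and 1.06 with median-of-ratios scaling. The chains of the transporter, which work as a pair, were near equal in FLAG, with a ratio of Tap1 to Tap2 of 1.06. The ratio was 0.831 in FLAG-CACUL1, 0.680 in sh-Luc and as low as 0.160 in sh-CACUL1, where Tap1 was the scarcer chain. About 150 fragments were estimated to lie behind Tap1 and about 1200 behind Tap2 in sh-CACUL1.

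Tapbp, the tapasin gene, was at 192 FPKM in FLAG and 146 in FLAG-CACUL1, against 95.6 for sh-Luc and 175 for sh-CACUL1. It was lowest in sh-Luc, and sh-CACUL1 lay between the FLAG-vector lines. Its range of 2.00-fold was the narrowest of the 6 genes. The log2 ratio was -0.39 for FLAG-CACUL1 against FLAG and 0.86 for sh-CACUL1 against sh-Luc, the latter above 2-fold in the other scalings (1.02 after quantile normalization, 1.31 with median-of-ratios scaling and 1.03 in TPM).

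The first comparison set the line labelled FLAG-CACUL1 against the empty vector, FLAG. None of the 6 genes was called higher and none lower in FLAG-CACUL1 than in FLAG, where 7.51% of all genes were called higher and 7.22% lower. The median log2 ratio was -0.46 over the 6 genes and 0.09 over all genes, with 5 genes below 0 and B2m above. Of all calls, 51.0% were higher ones, a share of 44.9% after quantile normalization, of 38.3% with median-of-ratios scaling and of 53.7% in TPM.

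The second comparison set the line with the hairpin against CACUL1 beside the luciferase hairpin. In sh-CACUL1, 3 of the 6 genes were called lower than in sh-Luc, namely H2-D1, B2m and Tap1, beside 16.4% of all genes, and none was called higher, beside 4.94%. The median log2 ratio was -0.64 over the 6 genes and -0.30 over all genes, so relative to the median of all genes H2-K1, Tap2 and Tapbp lay above and the other members below. Of all calls 23.2% were higher ones, and this share was 52.1% after quantile normalization, 53.9% with median-of-ratios scaling and 33.6% in TPM. B2m was the only member called lower under each of these scalings.

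The third comparison set the controls, FLAG and sh-Luc, against each other, which differed in vector and selection drug. Here 5 of the 6 genes were called higher in FLAG, beside 8.58% of all genes, and none lower, beside 12.4%. Tapbp, at a log2 ratio of 0.996, just missed 2-fold, which it reached with a pseudocount of 0.1. The median log2 ratio was 1.93 over the 6 genes and -0.18 over all genes. Higher calls were 40.8% of all calls, and 54.1% after quantile normalization, 62.8% with median-of-ratios scaling and 28.4% in TPM. For H2-K1, H2-D1, Tap1 and Tap2 the distance between the control lines was greater than that of either CACUL1 line from its own control, whereas B2m lay farther from its control in sh-CACUL1, and for Tapbp the order of these distances depended on the scaling.

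**Figure D2:**
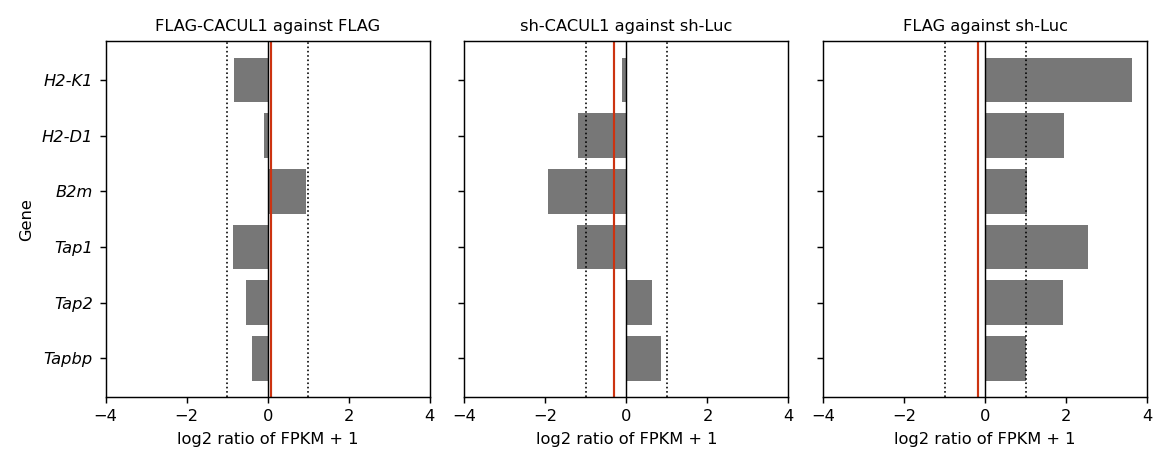
Log2 ratio of FPKM + 1 (x axis) of each of the 6 genes (y axis) in the 3 comparisons, with dotted lines at 2-fold and the red line at the median of all 13085 genes. In sh-CACUL1 against sh-Luc the bars point both ways, from -1.93 for B2m to 0.86 for Tapbp, whereas in FLAG against sh-Luc all 6 point to FLAG.

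Because the control lines stood so far apart, each CACUL1 line was also set against the other control. FLAG-CACUL1 against sh-Luc gave 5 genes higher and none lower, with a median log2 ratio of 1.76, where 5.04% of all genes were higher and 4.87% lower. sh-CACUL1 against FLAG gave 5 genes lower and none higher, with a median of -3.04, where 15.4% of all genes were lower and 7.45% higher. These comparisons share their samples with those above and add no separate evidence. B2m serves as an example: the log2 ratio of sh-CACUL1 was -1.93 against sh-Luc and -2.96 against FLAG.

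Counts for the lists below are to be read beside the shares of all genes. In FLAG-CACUL1 against FLAG 7.51% of all genes were called higher and 7.22% lower. These shares were 4.94% and 16.4% in sh-CACUL1 against sh-Luc, and 8.58% and 12.4% in FLAG against sh-Luc. Both FLAG-vector lines were above both hairpin lines in 17.3% of all genes, by at least 2-fold in 1.85%. The adipocyte markers took a different order over the lines from the 6 genes. With 6 of 7 analysed, each was called lower in FLAG-CACUL1 against FLAG, with a median log2 ratio of -4.64, and higher in sh-CACUL1 against sh-Luc, with a median of 3.24. In FLAG against sh-Luc 5 were called higher and none lower, with a median of 2.29. Adipoq, the adiponectin gene, was at 837 FPKM in FLAG and 22.96 in FLAG-CACUL1, against 171 for sh-Luc and 1252 for sh-CACUL1. Cidec, a lipid droplet protein, had log2 ratios of -5.72 and 4.01 in the CACUL1 comparisons, and Cfd, the adipsin gene, of -7.81 and 5.90. No adipocyte marker had both FLAG-vector lines above both hairpin lines. Of 5 preadipocyte or fibroblast markers, 4 had, among them Col1a1, a collagen chain, at 2412 FPKM in FLAG and 2424 in FLAG-CACUL1, against 1095 for sh-Luc and 156 for sh-CACUL1. Dlk1, which marks preadipocytes, was at 97.2, 39.4, 0.220 and 21.2 FPKM in the same order, and Thy1, a fibroblast surface protein, at 42.4, 144, 0.663 and 34.3. Pdgfra, named after its values were seen, was the exception, at 13.0, 40.9, 84.9 and 24.2 FPKM, with sh-Luc the highest line. In this list of 6, with 5 analysed, 2 were called higher and 1 lower in FLAG-CACUL1 against FLAG, 2 higher and 3 lower in sh-CACUL1 against sh-Luc and 3 higher and 1 lower in FLAG against sh-Luc, with medians of 0.85, -1.77 and 1.14. The part of these markers, and of the adipocyte markers, in the class I levels was not tested.

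Markers of leukocytes, which carry much class I, were low where analysed. Cd68, a macrophage protein, was at 16.2 FPKM in FLAG and between 0.962 and 1.44 in the other lines, Csf1r, the macrophage growth factor receptor, was at most 0.607, and Pecam1, an endothelial marker, was at most 0.301. The summed level of the leukocyte markers was 16.8 FPKM in FLAG and 1.08 to 1.84 in the others, and its part in the class I levels was not tested. The other 5 of 7 leukocyte markers, 3 of 4 endothelial markers and the 5 lymphocyte receptors of class I in the lists were not analysed here.

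The heavy chain genes outside the 6, which include the H2-Q, H2-T and H2-M genes and the class I-like Mr1 and Cd1d1, were mostly higher in the FLAG-vector lines, as H2-K1 and H2-D1 were. Of 21 listed 13 were analysed, and 10 of these reached 1 FPKM in some line. Of the 13, 12 had both FLAG-vector lines above both hairpin lines, 7 of them by at least 2-fold, beside 17.3% and 1.85% of all genes. The 12 include 3 genes that were under 0.5 FPKM in every line, and H2-Q8 among them was below the value of 1 fragment throughout. Over the 13, in FLAG against sh-Luc 7 were called higher and 1 lower, with a median of 1.14. In FLAG-CACUL1 against FLAG 1 was called lower and none higher, and in sh-CACUL1 against sh-Luc 2 were called lower and none higher, with medians of -0.19 and -0.45. The 2 lower calls among 13 were near the share of all genes called lower there, 16.4%.

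H2-T23, which encodes the Qa-1 molecule read by NK cell receptors, was at 37.5 FPKM in FLAG and 16.9 in FLAG-CACUL1, against 3.83 for sh-Luc and 2.60 for sh-CACUL1. Mr1, which presents vitamin B metabolites, was at 16.1, 25.02, 8.81 and 3.05 FPKM in the same order. Cd1d1, which presents lipids and like Mr1 is encoded outside the MHC, was the exception, at 3.22, 2.69, 8.87 and 2.60 FPKM, with sh-Luc the highest line. H2-Q4, named after its values were seen for being the most abundant of the 13 in both FLAG-vector lines, was at 71.5, 71.2, 13.8 and 7.46 FPKM. As with H2-K1 and H2-D1, the H2-Q and H2-T genes are near copies and the division of fragments among them is uncertain.

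Among the proteasome subunits that make class I peptides, Psmb8 and Psmb9 stood apart between the lines. They are the immunoproteasome subunits encoded beside Tap1, and they replace constitutive subunits when interferon is present. Psmb8 was at 37.8 FPKM in FLAG and 21.1 in FLAG-CACUL1, against 0.341 for sh-Luc and 0.302 for sh-CACUL1, so it was under 1 FPKM in both hairpin lines. Psmb9 was at 28.6, 7.72, 2.87 and 0.998 FPKM in the same order. Both had the FLAG-vector lines at least 2-fold above the hairpin lines, as none of the other 3 genes of their list did. Psmb10, the third immunoproteasome subunit, encoded outside the MHC and named after its values were seen, was at 22.5, 27.1, 20.2 and 29.5 FPKM, and its lines overlapped. Psme2, a subunit of the PA28 activator encoded outside the MHC, was at 133, 117, 91.1 and 234 FPKM, highest in sh-CACUL1. In the list of 5, 1 gene was called lower in FLAG-CACUL1 than in FLAG, 1 higher in sh-CACUL1 against sh-Luc and 2 higher in FLAG than in sh-Luc, with medians of -0.27, 0.48 and 0.55.

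The constitutive subunits varied far less than Psmb8 and Psmb9. Psmb5 was between 85.9 and 134 FPKM, Psmb6 between 74.6 and 112 and Psmb7 between 112 and 166, and none of the 3 was called in any of the 3 comparisons. Psmb8 as a percentage of Psmb5, the subunit it replaces, was 44.0% in FLAG and 18.7% in FLAG-CACUL1, against 0.300% for sh-Luc and 0.225% for sh-CACUL1. Psmb9 as a percentage of Psmb6 was 33.4%, 10.3%, 2.57% and 1.15% in the same order. For Psmb10 and Psmb7 the percentages were 20.1%, 19.4%, 12.3% and 17.8% and thus nearly level. The ratio of Tap1 to Psmb9 was 2.24, 4.48, 3.57 and 3.86. The GENCODE models of Tap1 and Psmb9 overlap on opposite strands and the sources used here do not say whether counting used strand, so fragments in the overlap cannot be assigned.

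**Figure D3:**
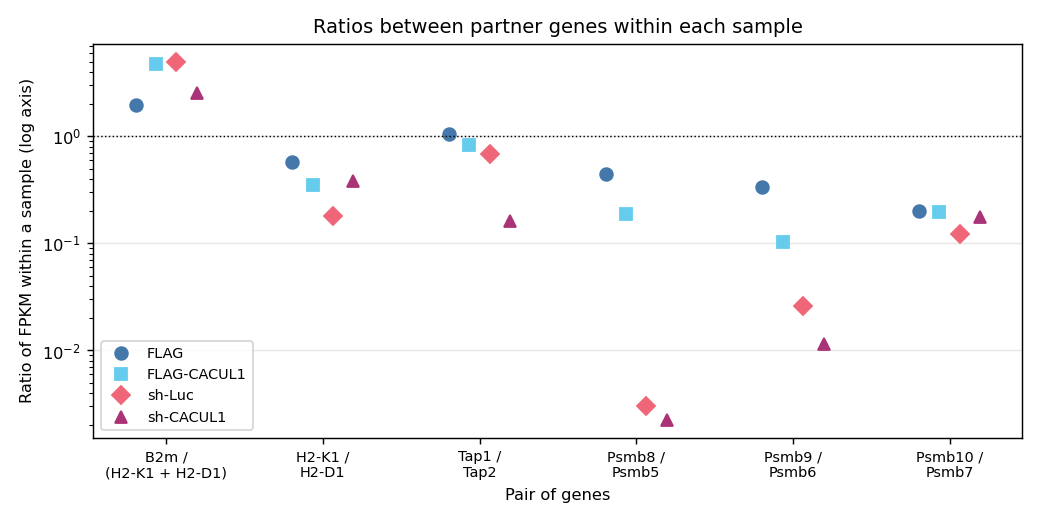
Ratio of FPKM between genes that work together or replace each other (x axis) within each sample, on a log axis, with 1 point per line and a dotted line at equal levels. Tap1 to Tap2 is lowest in sh-CACUL1, at 0.160, and the immunoproteasome subunits Psmb8 and Psmb9 are scarce against Psmb5 and Psmb6 in both hairpin lines.

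The other genes of peptide loading and trimming, mostly general chaperones and peptidases of the endoplasmic reticulum, showed no common order. Of 10 genes, 3 had both FLAG-vector lines above both hairpin lines and none by 2-fold. In FLAG-CACUL1 against FLAG 1 was called lower, in sh-CACUL1 against sh-Luc 1 higher and in FLAG against sh-Luc 2 higher, with medians of 0.08, -0.06 and -0.03, whose sign changed with the scaling in each. Hspa5, the chaperone BiP, was at 1441 FPKM in FLAG and 670 in FLAG-CACUL1, against 386 for sh-Luc and 546 for sh-CACUL1. Bcap31, a sorting receptor that carries class I molecules, was at 266, 189.7, 119 and 269 FPKM, and Lnpep, an aminopeptidase of cross-presentation, at 16.7, 8.08, 17.0 and 18.2 FPKM.

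The transcription regulators of class I genes were mostly level between the lines. Of 12, 3 had both FLAG-vector lines above both hairpin lines and none by 2-fold, which Nlrc5 just missed. The median log2 gap was -0.27. Of the same 12, none was called in FLAG-CACUL1 against FLAG, 1 was called lower in sh-CACUL1 than in sh-Luc, and 1 was called higher and 1 lower in FLAG than in sh-Luc, with medians of 0.12, -0.19 and -0.17 whose sign changed with the scaling. Nfkb1, whose product p50 binds κB sites, was at 14.7 FPKM in FLAG and 18.8 in FLAG-CACUL1, against 20.9 for sh-Luc and 4.61 for sh-CACUL1. It was the gene called lower in sh-CACUL1, with a log2 ratio of -1.96. Rela, which encodes the p65 partner of p50, had a log2 ratio of -0.94 there and Irf2, an interferon regulatory factor, of -0.81.

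Nlrc5 and Irf1, known regulators of class I transcription, were named after their values were seen and are among those 3. Nlrc5 was at 2.66 FPKM in FLAG and 3.08 in FLAG-CACUL1, against 0.832 for sh-Luc and 0.470 for sh-CACUL1. Both FLAG-vector lines were above both hairpin lines, at levels far below those of the heavy chains. The log2 gap was 0.998 and just missed 2-fold. The pseudocount of 1 FPKM exceeded both hairpin values and so narrowed this gap. Irf1 was at 53.5, 31.6, 19.4 and 28.2 FPKM, in the same order of lines as Tap2.

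The interferon receptors and JAK-STAT genes were lower in sh-CACUL1 in part. Of 10, 4 were called lower and none higher there against sh-Luc, beside 16.4% and 4.94% of all genes. Their median was -0.82, where that of all genes was -0.30, and it was -0.38 after quantile normalization and -0.45 with median-of-ratios scaling. In FLAG-CACUL1 against FLAG 2 were called higher and 1 lower, with a median of -0.26. In FLAG against sh-Luc 3 were called higher and none lower, with a median of 0.21. Stat2, the STAT of type I interferon signalling, was at 23.3 FPKM in FLAG and 77.7 in FLAG-CACUL1, against 31.8 for sh-Luc and 3.83 for sh-CACUL1, which was above its control in FLAG-CACUL1 and below it in sh-CACUL1, as B2m was. Jak1, a kinase of both interferon receptors, was at 89.0, 71.5, 35.6 and 12.1 FPKM, and Ifngr2, a chain of the interferon gamma receptor, at 22.2, 37.1, 30.6 and 10.6 FPKM.

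The interferon-stimulated genes outside antigen presentation were lowest in sh-CACUL1 in 20 of 22, with Gbp2 and Ifi35 as the exceptions. The share of all genes lowest in sh-CACUL1 was not computed. The median gene level there, 5.68 FPKM, was also the lowest of the 4 lines. Of the 22, 18 were called lower there than in sh-Luc and none higher, with a median log2 ratio of -2.15, where the 6 class I and loading genes had a median of -0.64. In FLAG-CACUL1 against FLAG 3 were called higher and 1 lower, with a median of 0.43, and in FLAG against sh-Luc 12 were called higher and none lower, with a median of 1.07. Both FLAG-vector lines were above both hairpin lines in 19 of the 22, by at least 2-fold in 10. Isg15, a ubiquitin-like protein, was at 79.8 FPKM in FLAG and 189 in FLAG-CACUL1, against 34.4 for sh-Luc and 1.62 for sh-CACUL1. Ifit1, an antiviral RNA-binding protein, was at 29.6, 72.5, 17.5 and 0.0258 FPKM, the last being less than 1 fragment on a 2 kb transcript, and its relative Ifit3 at 70.9, 139, 23.8 and 0.878 FPKM. B2m kept the order of Isg15 over the 4 lines, with FLAG-CACUL1 first and sh-CACUL1 last, and the other 5 class I and loading genes did not.

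**Figure D4:**
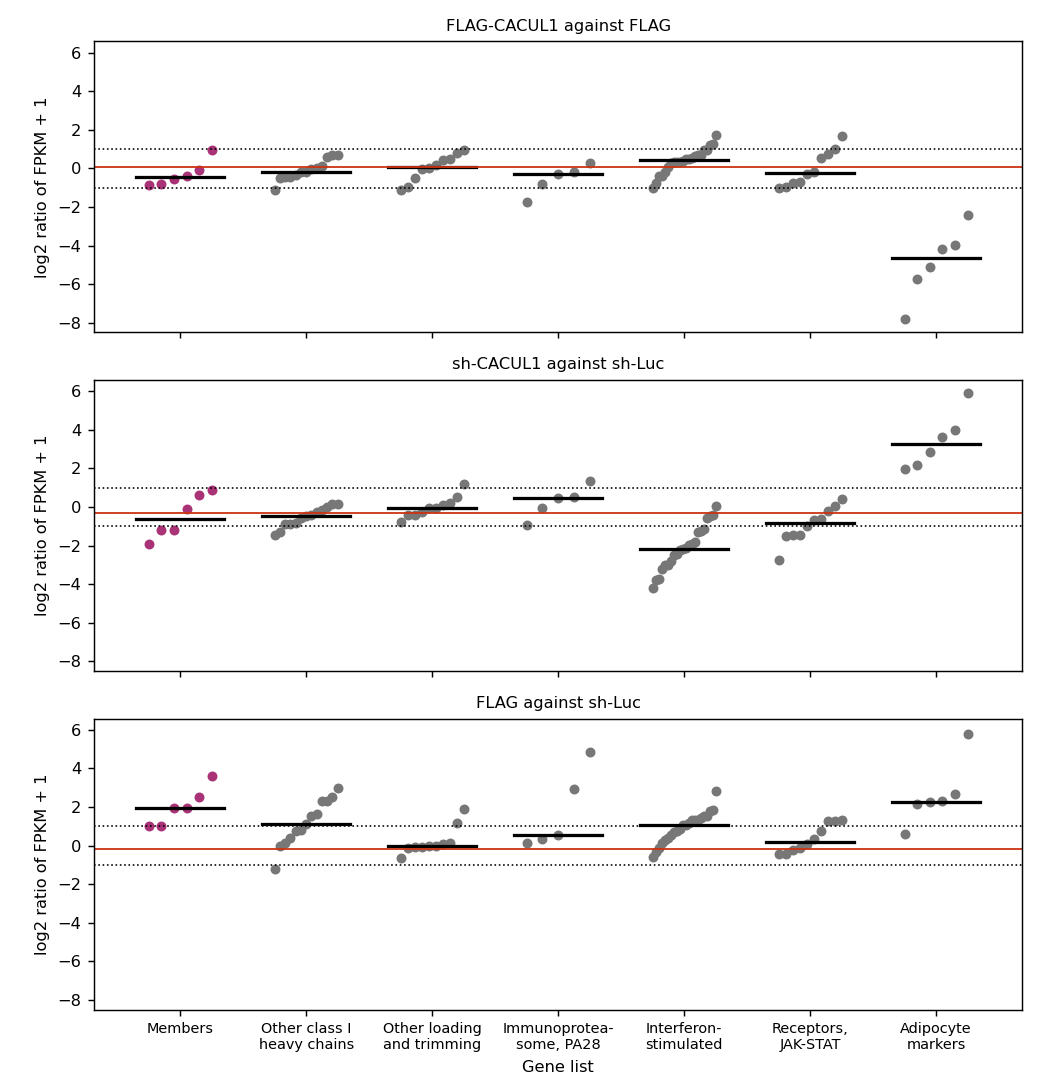
Log2 ratio of FPKM + 1 (y axis) of each gene (points) of the 6 members and of 6 related gene lists (x axis) in the 3 comparisons, with black bars at list medians, the red line at the median of all genes and dotted lines at 2-fold. In sh-CACUL1 against sh-Luc the interferon-stimulated genes lie around -2.15 and the adipocyte markers around 3.24, with the members spread between.

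The 5 genes outside the 6 whose levels over the 4 samples were most like the mean of the members were Ugcg, Tnfrsf23, Gadd45a, Kdelr3 and Prdx4, out of 9557 genes with at least 1 FPKM in each sample. Likeness was the Euclidean distance between log2(FPKM + 1) values centred on their mean, which was 0.17 for Ugcg and 0.31 for Prdx4. Ugcg, which encodes the glucosylceramide synthase, was at 26.7 FPKM in FLAG and 22.6 in FLAG-CACUL1, against 6.28 for sh-Luc and 3.46 for sh-CACUL1. The distance of the members from their own mean was 0.64 for H2-D1, 0.89 for Tap1, 1.11 for Tap2, 1.24 for H2-K1, 1.39 for B2m and 1.98 for Tapbp, so each was farther from it than these 5 genes.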

How the data were processed

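mRNA of 4 stable 3T3-L1 lines was measured by RNA-seq on day 8 of differentiation, with 1 sample per line, grouped by the labelled construct. Expression was taken as FPKM, as the authors deposited it, in 13110 rows named by RefSeq transcripts. A company prepared and sequenced the mRNA libraries. The build mm10 comes from the submitters' processing notes, and the aligner, the FPKM program, the normalization between samples and the use of strand are not given in the sources used here. No count test was possible on FPKM.

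Rows were matched to symbols through GENCODE M21 on GRCm38 (12906 rows) or RefSeq GRCm38.p6 alone (149 rows), 6 rows with several symbols in GENCODE were settled by RefSeq, 2 rows kept more than 1 symbol and 47 had none. Summing 50 rows of 25 symbols left 13085 genes. Log2 ratios used a pseudocount of 1 FPKM, with calls at 2-fold, the cut-off of the study, and no further low-value filter. All 13085 genes had a value above 0 in each of the 4 samples, so a gene at 0 in any line is in no share or list. Depth was estimated from value steps of transcripts of at least 3000 bases and was not used in any ratio. The calling step was tested on simulated data. Python 3.11.15, numpy 2.4.6, pandas 2.3.3 and matplotlib 3.10.9 were used.

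The 6 members and the lists were chosen with earlier results of these data known. All members and Cacul1 were named, with all genes of a list where 4 or fewer were found, otherwise the 3 with the largest absolute log2 ratio in either CACUL1 comparison among genes reaching 1 FPKM in some sample, and the 5 nearest profiles. Alternatives were a pseudocount of 0.1, no pseudocount, filters that kept genes reaching 1 FPKM in every sample or in any, the row with the highest mean in place of the sum, quantile normalization, median-of-ratios scaling, TPM, a 3-fold cut-off and the other control line.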

Additional observations from a re-analysis of the deposited data

How the results depend on the processing

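Each line had 1 sample, so a difference between lines includes whatever differed between those cultures and libraries. No paired analysis was possible because each group has 1 sample. Single members gave 144 log2 ratios under the alternatives that kept the control. Of these, 130 stayed on their side of 2-fold and moved by less than 1.5-fold. The filters and the choice of row could not move a member, because each has 1 row and at least 3.85 FPKM in every line. Part of the 130 was therefore fixed in advance. The other 14 ratios were moved by the scalings and, for Tapbp, by the pseudocount. Against the other control 0 of 12 stayed within these limits. Of the values for the lists, 254 of 279 stayed within the same limits. Against the other control, FLAG-CACUL1 had 5 members higher with a median log2 ratio of 1.76 and sh-CACUL1 had 5 lower with a median of -3.04. In sh-CACUL1 against sh-Luc, 2 members were higher after quantile normalization, 2 with median-of-ratios scaling and 1 in TPM. Of the 13085 genes these scalings called 1178, 1186 and 1039 higher, where 647 were as deposited. With median-of-ratios scaling 1 member was lower, beside 1016 of all genes (2141 as deposited). At a 3-fold cut-off 1 member was lower, and all genes were not counted there. In FLAG-CACUL1 against FLAG, 1 was lower with median-of-ratios scaling, beside 1187 of all genes. The median of the MHC class II genes in FLAG against sh-Luc was 1.54. It was -0.33 where each gene had to reach 1 FPKM in every sample, which left H2-DMa alone. Higher calls over all genes were 50.8% of calls in FLAG-CACUL1 against sh-Luc (58.9% after quantile normalization, 62.9% with median-of-ratios scaling, 33.6% in TPM) and 32.6% in sh-CACUL1 against FLAG (50.1%, 42.5% and 57.0%). The median of all genes for sh-CACUL1 against sh-Luc was -0.30 as deposited, -0.01 after quantile normalization and -0.23 in TPM.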

Other observations

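Of 10 listed genes of the MHC class II pathway, 4 were analysed. H2-DMa, a chain of the peptide exchange factor of class II, was at 4.38 FPKM in FLAG and 3.75 in FLAG-CACUL1, against 5.79 for sh-Luc and 10.5 for sh-CACUL1. H2-DMb1 was at 6.21, 2.58, 0.715 and 2.94 FPKM in the same order and its near-identical neighbour H2-DMb2 at 8.83, 2.60, 0.774 and 2.83, and the division of fragments between these copies is uncertain. Cd74, the invariant chain, was at 6.19, 41.1, 2.59 and 0.362 FPKM, highest in FLAG-CACUL1 and lowest in sh-CACUL1 as B2m was, with log2 ratios of 2.55 for FLAG-CACUL1 against FLAG and -1.40 for sh-CACUL1 against sh-Luc. With 1 sample per line none of these differences was tested.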
